A study of Bos taurus with 12 samples.

Results

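The mevalonate pathway builds farnesyl pyrophosphate from acetyl-CoA in the cytosol and at the endoplasmic reticulum. It starts with the joining of acetyl-CoA units to HMG-CoA, goes on through mevalonate and its phosphates, and ends with the linking of isoprene units. Farnesyl pyrophosphate is then drawn into sterols, protein prenyl groups, dolichol and ubiquinone. Many genes of the pathway are known targets of the SREBP transcription factors, which are activated when sterols in the membrane are low. Rumen epithelium also makes ketone bodies from the same precursors, with a mitochondrial set of enzymes that are other gene products.

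The members were 6 enzyme genes, ACAT2, HMGCS1, MVK, PMVK, MVD and FDPS. The genes were chosen with earlier results of these data known. Their probe sets were found by name alone, as every probe set whose single gene symbol in the array's probe-to-gene table was one of these. This gave 9 probe sets of the 24016 on the array other than controls (6 of 9155 named genes), with 3 for MVK, 2 for HMGCS1 and 1 for each of the other genes. HMG-CoA reductase and isopentenyl-diphosphate isomerase, which act between these enzymes, are not among the members and were not analysed here. The gene IDs of all 9 probe sets were found under the same symbols in RefSeq's table for bovine assembly ARS-UCD2.0, which served for names only.

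Papillae were taken from the ventral sac of the rumen of 4 Holstein dairy cows. Each cow was sampled on a high forage diet, the control (week 0), and after 1 and 3 weeks of a grain challenge, which gave 12 Affymetrix arrays in 3 groups of 4. All samples came from animals that served as their own baseline, and no cow kept on forage to the end is among them, so diet and elapsed time cannot be told apart. Each value is a log2 difference from the median that its probe set has in the 12 arrays. The values therefore hold differences between arrays and no level, so neither the level of one gene against another nor the presence of a marker of the tissue can be read from them.

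Of the arrays, 3 stood apart in their 18 hybridization controls, which are RNAs added at hybridization. Their mean was 0.48 to 0.72 on both the week 0 and week 1 arrays of cow 1 and the week 0 array of cow 2, and -0.32 to 0.05 elsewhere. Markers of the cell types of the wall also moved between weeks. The mean of 6 measured of 8 basal keratinocyte markers was 0.09 to 0.41 at week 0, -0.34 to 0.28 at week 1 and -0.31 to 0.05 at week 3. That of 6 of 10 suprabasal markers was 0.06 to 0.60, -0.50 to 0.19 and -0.39 to -0.14 at the same weeks. The mean of 8 of 8 fibroblast and matrix markers was -0.43 to 0.09, -0.41 to 0.23 and 0.08 to 0.38, and that of 7 of 8 macrophage and leukocyte markers was -0.78 to 0.69, -0.68 to 0.26 and -0.28 to 0.80. The part of these shifts in the values of the pathway was not tested. In a bulk sample, fewer epithelial cells and less RNA per cell cannot be told apart.

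HMGCS1, FDPS and ACAT2 shared a pattern over the weeks. Their means were highest in the first week of grain and lower in the third week than on forage, for ACAT2 by a difference that depended on single arrays. The rise in the first week had a 95% interval that covered 0 for FDPS and for 1 of the 2 HMGCS1 probe sets. In cow 2 there was no such rise at these probe sets or for ACAT2. The means of PMVK, MVD and the 3 MVK probe sets did not follow this order, for MVD because of 1 array at week 1. No probe set of the 24016 passed an adjusted p of 0.05 in any of the 3 comparisons (limma, Benjamini-Hochberg), which is 0% called, and 0 of the 9 members did so. A term for the cow brought this to 0.00833% in week 1 against week 0 and left 0% in the others, again with no member called. At an unadjusted p under 0.05 there were 1237 probe sets in week 1 against week 0, 933 in week 3 against week 0 and 1172 in week 3 against week 1. These counts rested in part on single libraries. Without the week 1 array of cow 1 the first was 10340 (43.1%) and the last 4293 (17.9%), and without all arrays of cow 1 they were 4910 and 2377. The second was 594 without cow 2, and the last was 770 without cow 3. The values below are therefore given as sizes with their errors, and none of them is a called change. Standard errors (SE) and intervals are from the model without a term for the cow, except where the block is named. With that term the SE was smaller for HMGCS1 at Bt.22763.1.S1_at (0.51 against 0.70) and larger for PMVK (0.13 against 0.12).

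**Figure D1:**
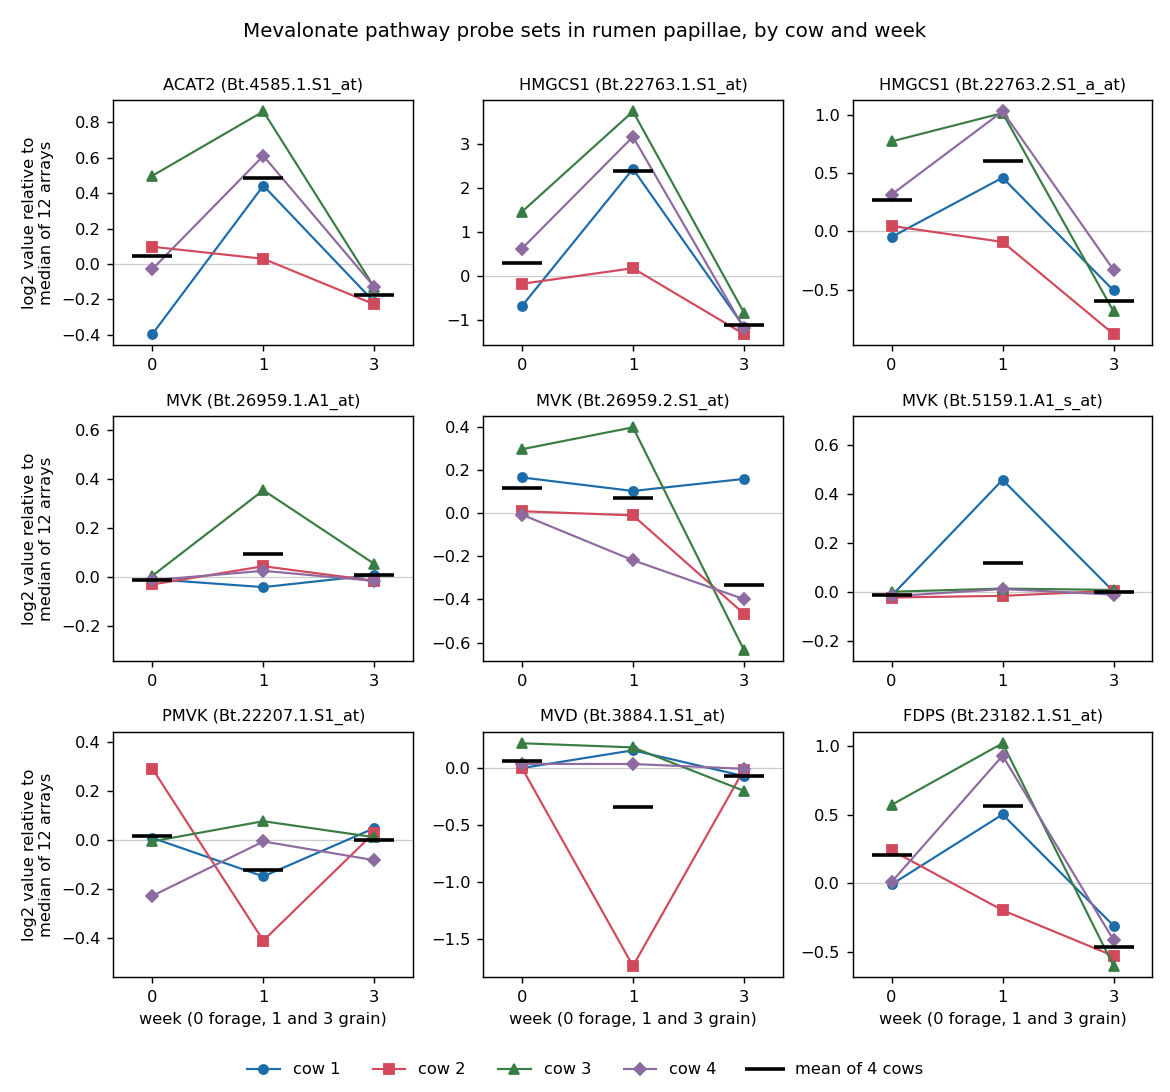
Log2 value of each of the 9 member probe sets (y axis, relative to the median of the 12 arrays, with a scale of its own in each panel) against week (x axis), with 1 line per cow and a bar for the mean of 4 cows. HMGCS1 at Bt.22763.1.S1_at peaks at 3.74 in cow 3 at week 1, and the 4 arrays of week 3 lie between -1.32 and -0.83.

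HMGCS1 encodes the cytosolic HMG-CoA synthase, which adds acetyl-CoA to acetoacetyl-CoA. At its probe set Bt.22763.1.S1_at the week 0 values were -0.68, -0.18, 1.46 and 0.62 in cows 1 to 4. The week 1 values were 2.43, 0.18, 3.74 and 3.17, and the week 3 values were -1.15, -1.32, -0.83 and -1.19. The 4 lowest of the 12 arrays were the 4 of week 3, and the 3 highest were week 1 of cows 3, 4 and 1, while week 1 of cow 2 lay among the week 0 values. The means were 0.31 ± 0.94 at week 0, 2.38 ± 1.56 at week 1 and -1.12 ± 0.21 at week 3 (SD, n = 4). The cows thus lay far apart at week 1 and close together at week 3.

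Within cows, HMGCS1 at this probe set was higher at week 1 than at week 0 by 3.12, 0.35, 2.28 and 2.54 on the log2 scale in cows 1 to 4. It was lower at week 3 than at week 0 in all 4 cows, by differences from -2.29 to -0.47. Of all probe sets 0.117%, or 28, were higher at week 1 and lower at week 3 than at week 0 in every cow, and this was the 1 member among them. The model gave 2.07 ± 0.70 (SE, 95% interval 0.53 to 3.62) for week 1 against week 0, higher in 4 of 4 cows (limma, adjusted p = 0.763, or 0.351 with the cow as a block). Week 3 was at -1.43 ± 0.70 (interval -2.98 to 0.12) against week 0, lower in 4 of 4 cows, with groups that did not overlap (limma, adjusted p = 0.901). With the cow as a block the interval was -2.62 to -0.24 (limma, adjusted p = 0.688). This difference was -2.17 when the 3 arrays set apart by their hybridization controls were left out, and -1.05 without week 0 of cow 3. Week 3 was at -3.50 ± 0.70 (interval -5.05 to -1.96) against week 1, 11.3-fold lower, and this was the largest difference in that comparison over the 24016 probe sets. It was lower in 4 of 4 cows, with an unadjusted p of 0.000462 and an adjusted p of 0.548 by limma (0.159 with the cow as a block).

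The second probe set of HMGCS1, Bt.22763.2.S1_a_at, gave smaller differences in the same directions. Its values were -0.05, 0.05, 0.77 and 0.32 at week 0, 0.46, -0.09, 1.02 and 1.03 at week 1, and -0.51, -0.88, -0.69 and -0.33 at week 3. Week 3 again held the 4 lowest arrays, and week 1 of cow 2 was again apart from the other arrays of its week. Week 1 was at 0.33 ± 0.26 against week 0, higher in 3 of 4 cows, which was 0.19 without week 1 of cow 4 and 0.56 without week 1 of cow 2. Week 3 was at -0.87 ± 0.26 (interval -1.46 to -0.29), lower in 4 of 4. Week 3 against week 1 was at -1.21 ± 0.26 (interval -1.79 to -0.62), or 2.31-fold lower, and lower in 4 of 4 cows (limma, adjusted p = 0.548, or 0.159 with the cow as a block). The 2 probe sets followed each other over the 12 arrays, with r = 0.93, and differed in the size of the response. Which of them gives the better estimate of the HMGCS1 transcript cannot be told from these values.

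ACAT2, the cytosolic thiolase that makes acetoacetyl-CoA one step before HMGCS1, was measured by Bt.4585.1.S1_at. Its values were -0.40, 0.10, 0.50 and -0.03 at week 0, 0.44, 0.03, 0.86 and 0.61 at week 1, and -0.22, -0.23, -0.13 and -0.13 at week 3 in cows 1 to 4. All arrays of week 1 lay above all of week 3, while week 0 of cow 1 was the lowest array of all. The differences were 0.44 ± 0.19 (SE, interval 0.01 to 0.88) for week 1 against week 0, higher in 3 of 4 cows, and -0.22 ± 0.19 for week 3 against week 0, lower in 3 of 4. The latter was -0.07 without week 0 of cow 3 and -0.36 without week 0 of cow 1. Week 3 against week 1 was at -0.66 ± 0.19 (interval -1.09 to -0.23), or 1.58-fold lower and lower in 4 of 4 cows (limma, adjusted p = 0.715, or 0.305 with the cow as a block). With those 3 arrays left out the difference of week 1 from week 0 was 0.27 for ACAT2, 1.32 and 0.11 for the HMGCS1 probe sets and 0.29 for FDPS.

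FDPS, the synthase that links isoprene units into farnesyl pyrophosphate at the end of this stretch, was measured by Bt.23182.1.S1_at. Its values in cows 1 to 4 were -0.01, 0.24, 0.57 and 0.01 at week 0, 0.50, -0.20, 1.02 and 0.93 at week 1, and -0.31, -0.53, -0.60 and -0.41 at week 3. The 4 lowest arrays were again those of week 3, with a mean of -0.46 ± 0.13 (SD, n = 4) against 0.20 ± 0.27 at week 0. At week 1 the mean was 0.56 ± 0.56, and cow 2 alone was below its own week 0, by -0.44. Week 1 was at 0.36 ± 0.24 (SE, interval -0.17 to 0.90) against week 0, and this was 0.63 without cow 2 and 0.17 without cow 4. Week 3 was at -0.67 ± 0.24 (interval -1.20 to -0.13) against week 0, and at -1.03 ± 0.24 (interval -1.56 to -0.50), or 2.04-fold lower, against week 1. FDPS was lower in 4 of 4 cows in both (limma, adjusted p-values of 0.901 and 0.575, or 0.668 and 0.281 with the cow as a block).

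The mevalonate kinase gene MVK, whose enzyme adds the first phosphate to mevalonate, had 3 probe sets that did not move alike. At Bt.26959.2.S1_at the values were 0.16, 0.01, 0.29 and -0.01 at week 0, 0.10, -0.01, 0.40 and -0.22 at week 1, and 0.16, -0.47, -0.63 and -0.40 at week 3. Cows 2, 3 and 4 were low at week 3, and cow 1 differed from its week 0 by -0.06 and -0.01 at weeks 1 and 3. Week 1 was at -0.05 ± 0.17 (SE, interval -0.43 to 0.34) against week 0. Week 3 was at -0.45 ± 0.17 (SE, interval -0.83 to -0.07) against week 0, lower in 4 of 4 cows, and at -0.40 ± 0.17 against week 1 (limma, adjusted p-values of 0.901 and 0.999, or 0.683 and 0.598 with the cow as a block). Without cow 3 these differences were -0.29 and -0.19.

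The other MVK probe sets hardly varied. Bt.26959.1.A1_at was within 0.1 of 0 on 11 of the 12 arrays and at 0.36 on week 1 of cow 3. Bt.5159.1.A1_s_at was within 0.1 of 0 on 11 arrays and at 0.46 on week 1 of cow 1. Their SDs over the 12 arrays, 0.11 and 0.13, were close to the median of 0.12 over all probe sets, and 1 array set most of each. Week 1 was at 0.11 ± 0.07 and 0.13 ± 0.09 (SE) against week 0, and week 3 at -0.09 ± 0.07 and -0.12 ± 0.09 against week 1, with intervals that covered 0. Their differences of week 3 from week 0, 0.02 and 0.01, turned negative after quantile normalization of the arrays.

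PMVK encodes the kinase that adds the second phosphate. At Bt.22207.1.S1_at it was at 0.01, 0.29, -0.01 and -0.23 at week 0, -0.15, -0.41, 0.08 and -0.01 at week 1 and 0.05, 0.03, 0.01 and -0.08 at week 3. The weeks overlapped throughout, and the widest spread was between the week 0 and week 1 arrays of cow 2. Week 1 was at -0.14 ± 0.12 (SE, interval -0.40 to 0.12) and week 3 at -0.01 ± 0.12 (interval -0.28 to 0.25) against week 0, and week 3 at 0.12 ± 0.12 (interval -0.14 to 0.39) against week 1. Both differences of PMVK from week 0 were positive, 0.05 and 0.07, without cow 2.

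MVD, the decarboxylase that makes isopentenyl pyrophosphate, was at Bt.3884.1.S1_at near 0 on most arrays, with values from -0.20 to 0.22 on 11 of the 12. On week 1 of cow 2 it was at -1.74. The difference of week 1 from week 0 was -0.40 ± 0.36 (SE, interval -1.20 to 0.39) with that array and 0.06 without it. The difference of week 3 from week 1 was 0.27 ± 0.36 with it and -0.20 without it. Week 3 was lower than week 0 in all 4 cows without overlap, by -0.14 ± 0.36 on average, of which cow 3 held the largest part at -0.42. Without cow 3 that difference was -0.04.

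**Figure D2:**
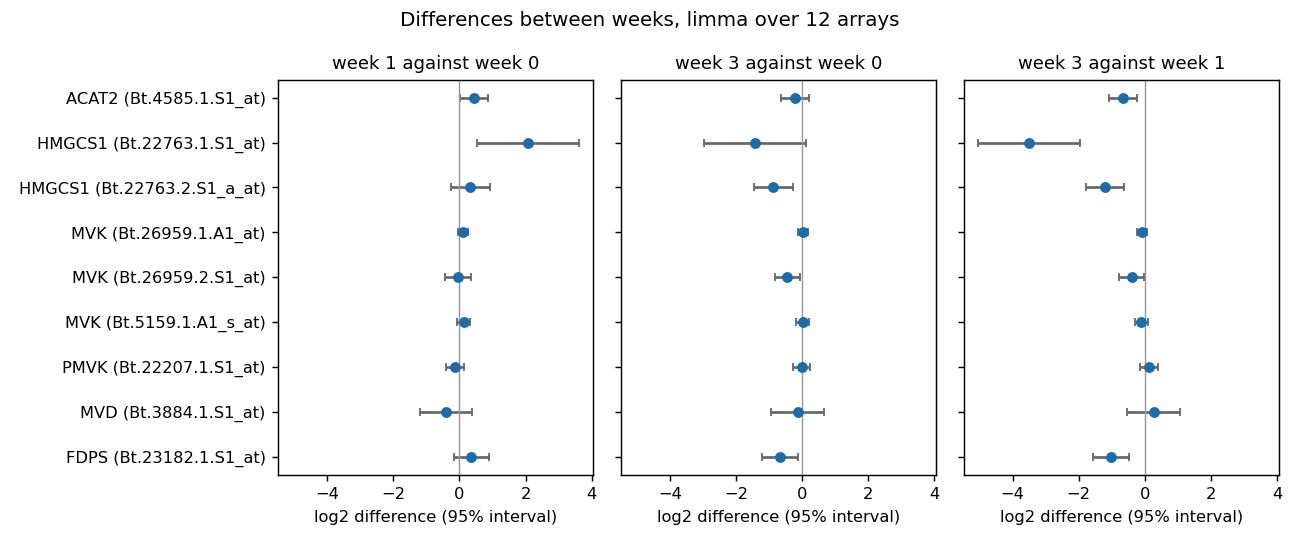
Log2 difference between weeks (x axis) of the 9 member probe sets (y axis), with points for the limma estimate over 12 arrays and bars for its 95% interval, not adjusted for the number of probe sets. In week 3 against week 1 HMGCS1 lies at -3.50 and -1.21, FDPS at -1.03 and ACAT2 at -0.66, while the intervals of PMVK, MVD and 2 of the 3 MVK probe sets cover 0.

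The members were chosen with earlier results of these data known, so their counts beside all probe sets are no independent evidence of a direction. Counted over the 9 probe sets, week 1 against week 0 had 6 higher and 3 lower. Their median was 0.13 against 0.03 over all probe sets, of which 73.0% were higher. In that comparison 2 members were higher in all 4 cows, as were 6.91% of all probe sets (3.39% were lower in all), and none was without overlap between the weeks (2.09% of all were higher and 0.591% lower without overlap). These 2 were HMGCS1 at Bt.22763.1.S1_at and MVK at Bt.5159.1.A1_s_at, the latter by 0.47 in cow 1 but by 0.007 to 0.03 in the other cows. At an unadjusted p under 0.05, 2 members were higher, against 3.28% of all probe sets (1.87% were lower). They were HMGCS1 at Bt.22763.1.S1_at and ACAT2. This contrast depended on single libraries: without the week 1 array of cow 1 it was 1 member against 43.1% of all probe sets in either direction, and without cow 1 or without cow 4 no member.

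Week 3 against week 0 had 7 members lower and 2 higher, with a median of -0.22 against 0.02 over all probe sets, of which 72.8% were higher. Of the members 5 were lower in all 4 cows, against 4.63% of all probe sets, and 1 was higher in all 4, against 36.3%. The latter was MVK at Bt.5159.1.A1_s_at, by only 0.007 to 0.03, so this count includes very small differences. Of the members 4 were lower without overlap with week 0, against 0.754% of all probe sets lower and 2.72% higher. Those 4 were both HMGCS1 probe sets, FDPS and MVD. For MVD the gap was narrow, with a highest week 3 value of -0.0065 and a lowest week 0 value of -0.0008. At an unadjusted p under 0.05, 3 members were lower, against 1.36% of all (2.52% were higher), and without cow 3 it was 1 member. The median was -0.08 without cow 3 and -0.41 with those 3 arrays left out.

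Week 3 against week 1 also had 7 lower and 2 higher, with a median of -0.40 against -0.01 over all probe sets. Of all probe sets 66.6% were lower, so the direction of the members was near that of the array as a whole. Both HMGCS1 probe sets, FDPS and ACAT2 were lower in all 4 cows and without overlap, against 4.59% and 1.38% of all probe sets (5.12% and 1.07% were higher in these ways). At an unadjusted p under 0.05, 5 members were lower, against 2.41% of all (2.47% were higher). Without the week 1 array of cow 1 it was 4 members, against 17.9% of all in either direction. The comparisons share arrays, so their counts are not independent of each other. The median was -0.19 without cow 3 and -0.14 with array weights. In the F test over the 3 weeks together no member was called (limma, adjusted p-values from 0.638 to 0.939), with 0% of all probe sets called.

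The members differed in how much of their spread lay between weeks. For HMGCS1 71.1% of the variance at Bt.22763.1.S1_at and 68.5% at the second probe set lay between the weekly means, with 64.6% for FDPS and 53.8% for ACAT2. For MVD and PMVK these shares were 11.3% and 14.1%, near the median of 12.4% over all probe sets. Between cows lay 17.4% for HMGCS1 at the first probe set and 11.4% for FDPS, against a median of 27.0%. By SD over the 12 arrays HMGCS1 at Bt.22763.1.S1_at, at 1.78, had 26 of the 24016 probe sets above it.

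Cow 2 differed from the other cows in the first week of grain. Its difference of week 1 from week 0 was 0.35 for HMGCS1 at Bt.22763.1.S1_at, where the other cows had 2.28 to 3.12. It was -0.14 at the second HMGCS1 probe set, -0.07 for ACAT2 and -0.44 for FDPS, where the other cows were all positive. In the same cow PMVK was at -0.70 and MVD at -1.74. From week 1 to week 3 HMGCS1 in cow 2 was lower by -1.50 and FDPS by -0.33, the smallest of the 4 cows in both. The week 0 array of cow 2 was one of those with high hybridization controls, at 0.72, and its week 1 array had the lowest, at -0.32. Their part in these differences was not tested.

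The genes most like HMGCS1 and FDPS were looked for among 9149 other named genes, each by its probe set of largest SD, with Pearson's r over the 12 arrays as the measure of likeness. The arrays share 4 cows and 3 weeks and are not independent, so r is a description. For HMGCS1 the 5 most like were NSDHL, FDFT1, SYNCRIP, AACS and MCM6, at r = 0.93, 0.92, 0.91, 0.90 and 0.90. For FDPS they were NSDHL, SCD, AACS, FDFT1 and CCT2, at r = 0.98, 0.95, 0.94, 0.93 and 0.91. With each cow's mean removed r was 0.90 to 0.93 for the first 5 and 0.91 to 0.98 for the others. MCM6 was less like HMGCS1 by rank, with Spearman's rho of 0.66, where the other genes named for HMGCS1 had 0.89 to 0.94. The means of MCM6 were 0.05 at week 0, 0.55 at week 1 and 0.005 at week 3.

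NSDHL, FDFT1 and AACS were in both sets. NSDHL is a dehydrogenase of the late sterol steps, FDFT1 is the squalene synthase that takes up farnesyl pyrophosphate, and AACS is the cytosolic synthetase that makes acetoacetyl-CoA from the ketone body acetoacetate. SCD is the stearoyl-CoA desaturase, SYNCRIP an RNA-binding protein, MCM6 a subunit of the replicative helicase and CCT2 a chaperonin subunit. AACS averaged 0.17 at week 0, 0.55 at week 1 and -0.46 at week 3. In cow 2 it went from -0.03 at week 0 to 0.03 at week 1 and -0.76 at week 3. Among the members, HMGCS1 at Bt.22763.1.S1_at had r = 0.95 with ACAT2 and 0.94 with FDPS. Its r was 0.50 with MVK at Bt.26959.2.S1_at, 0.22 with MVD and -0.05 with PMVK. By rank MVD was nearer, with Spearman's rho of 0.72 with this probe set, 0.83 with the second of HMGCS1 and 0.84 with FDPS, and its -1.74 on week 1 of cow 2 lay far from its other values.

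**Figure D3:**
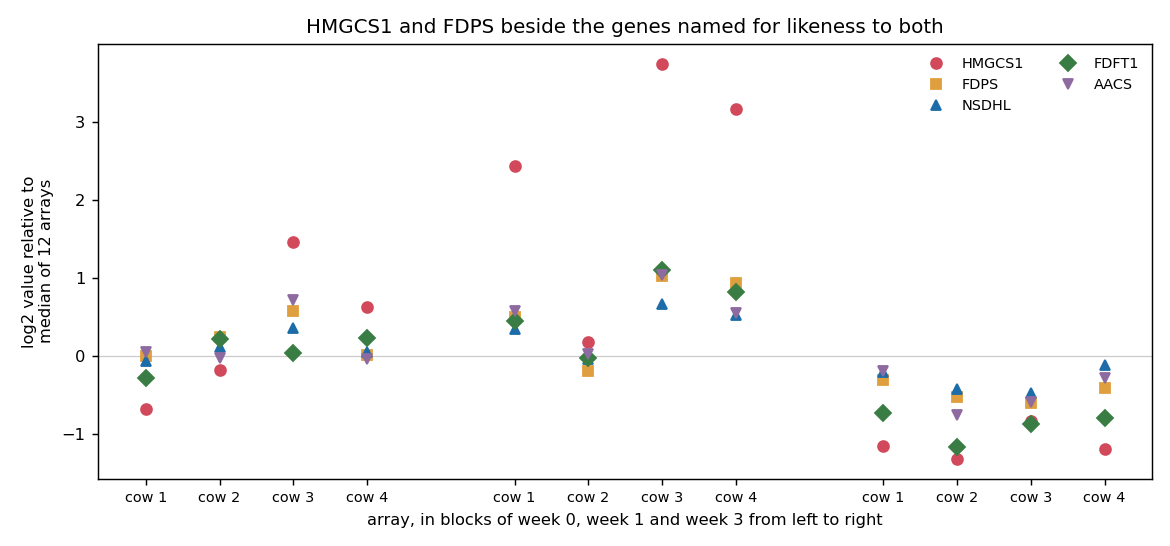
Log2 value relative to the median of 12 arrays (y axis) on each array (x axis, 4 cows within each week) for HMGCS1, FDPS and the 3 genes named for likeness to both. All of them lie below 0 on the 4 arrays of week 3, and on week 1 of cow 2 they lie between -0.20 and 0.18.

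The rest of the pathway was described through lists of 43 genes, of which 30 were measured and 0 were called in any comparison. Of the squalene and sterol steps, which use the product of FDPS, 9 of 13 genes were measured. All 9 were higher at week 1 than at week 0 (median 0.23, against 0.03 over all probe sets, of which 73.0% were higher), and none of them in all 4 cows. FDFT1 was at 0.54 ± 0.22 (SE) and the sterol reductase gene TM7SF2 at 0.42 ± 0.21. All 9 were lower at week 3 than at week 0, in all 4 cows each (median -0.45), where 27.2% of all probe sets were lower and 4.63% lower in all 4 cows, with FDFT1 at -0.94 ± 0.22, NSDHL at -0.42 ± 0.15, the squalene epoxidase gene SQLE at -0.42 ± 0.17 and the methylsterol oxidase gene MSMO1 at -0.45 ± 0.18. One of the 3 probe sets of FDFT1, and 1 of the 3 of LSS, another of the 9 genes, had the opposite sign there. Against week 1 the 9 genes were lower with a median of -0.65, and 7 of them in all 4 cows. Of all probe sets 66.6% were lower there and 4.59% lower in all 4 cows. FDFT1 was at -1.48 ± 0.22, lower in 4 of 4 cows (limma, adjusted p = 0.230, the lowest in that comparison and shared with other probe sets).

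Of 11 measured genes for prenylation, dolichol and ubiquinone synthesis 8 were higher at week 1 and 6 at week 3 than at week 0, with medians of 0.03 and 0.00. Of all probe sets 73.0% and 72.8% were higher in these comparisons. FNTA, a farnesyltransferase subunit, was at -0.12 ± 0.06 (SE) and ZMPSTE24, a protease that trims prenylated proteins, at 0.18 ± 0.08 at week 1 against week 0. RABGGTA, a subunit of the enzyme that prenylates Rab proteins, was at 0.31 ± 0.12 at week 3 against week 0. Of 3 measured genes of acetyl-CoA supply and mitochondrial paralogs, ACAT1, the mitochondrial thiolase of ketone body metabolism, was at 0.22 ± 0.11 at week 1 against week 0, higher in 4 of 4 cows. At week 3 against week 0 ACAT1 was at -0.04 ± 0.11. The other genes of this list, ACLY and ACSS2, were at 0.002 ± 0.08 and 0.04 ± 0.11 at week 1 and at -0.03 ± 0.08 and 0.06 ± 0.11 at week 3 against week 0.

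Of the 7 measured genes of sterol regulation 5 were higher at week 1 and 4 were lower at week 3 than at week 0, and all 7 were lower at week 3 than at week 1 (medians 0.16, -0.07 and -0.08). The matching shares of all probe sets were 73.0% higher, 27.2% lower and 66.6% lower. These directions are those of the probe set of largest SD of each gene. At week 1 against week 0, 1 of 2 probe sets of SREBF2 and 2 of 4 of SCAP had the opposite sign. At week 3 against week 0 it was 1 of 4 of SREBF1, 1 of 2 of SREBF2 and 2 of 4 of SCAP. At week 3 against week 1 it was 2 of 4 of SCAP and 1 of 3 of INSIG2. INSIG1, a retention factor of the SREBP pathway and itself a known target of it, was at -0.34 ± 0.13 (SE) at week 3 against week 0 and at -0.61 ± 0.13 against week 1, lower in 4 of 4 cows in both. INSIG2, its paralog, was at 0.26 ± 0.09 at week 1 against week 0. These values are given beside those of the members, and the lists were chosen with results of these samples known, so they are no independent evidence of a direction.

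**Figure D4:**
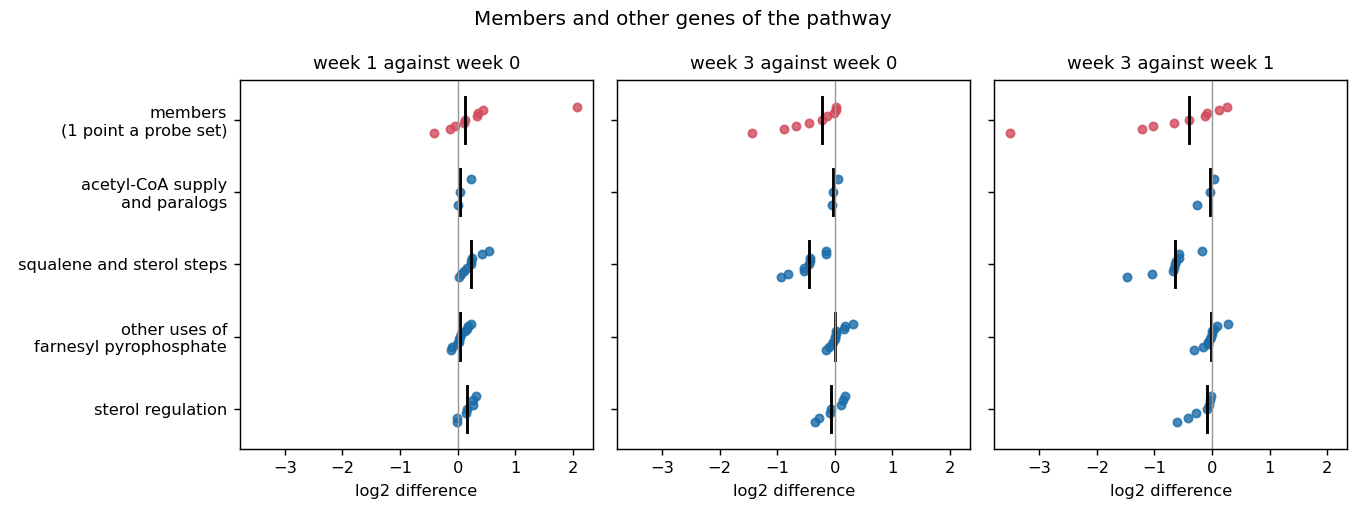
Log2 difference between weeks (x axis) for the 9 member probe sets and for the 4 lists with measured genes (y axis), with 1 point per member probe set or listed gene and a bar at the median. In week 3 against week 1 the members have a median of -0.40, the squalene and sterol steps -0.65 and the other uses of farnesyl pyrophosphate -0.03.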

How the data were processed

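Per the submitters' processing notes the deposited log2 values were made with GCRMA, which corrects the background of Affymetrix probes and normalizes between arrays, with no version recorded there. In the deposited table each probe set has a median of 0 over the 12 arrays. The log base was not stated and was taken as 2, since the widest range of any probe set is 11.2, which with natural logs would mean a 74399-fold span, more than the 65535 steps a 16-bit scan can hold.

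All 24016 probe sets other than the 112 controls were fitted with limma 3.58.1 in R 4.3.3 (lmFit and eBayes, two-sided), with a mean per week and no cow term, with Benjamini-Hochberg adjustment of the p-values over the whole set. The steps were tested on simulated data. The replicate numbers are the cows. Deviations from the weekly means correlated at 0.30 to 0.69 within a cow and at -0.44 to 0.07 between cows, and same-numbered samples come from the same animal, so the numbers pair the samples and a blocked model was fitted too. Of the probe sets 13292 named 1 gene, 86 several and 10638 none. Genes other than members were represented by their probe set of largest SD. Every member probe set was named in each comparison, with the 5 genes most like HMGCS1 and FDPS and up to 6 listed pathway genes of smallest p. The members and lists were chosen with earlier results of these data known. Alternatives were the block, the cow as a random effect, quantile normalization, centring of arrays, array weights, a filter on SD and leaving out arrays or cows. The number of arrays limits the precision. No sequences were used here.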

Additional observations from a re-analysis of the deposited data

Results flagged for a closer look

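In 27 groups of 4 arrays (9 probe sets at 3 weeks), 3 held an array far from the other 3 by Dixon's test, and chance gives about 1 in 20. MVD at Bt.3884.1.S1_at was at -1.74 in week 1 of cow 2, with the other cows between 0.04 and 0.18. The same probe set was at 0.22 in week 0 of cow 3, with the others between 0.00 and 0.04, which was just past the limit. MVK at Bt.5159.1.A1_s_at was at 0.46 in week 1 of cow 1, with the others between -0.02 and 0.01. What set these arrays apart was not tested.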

How the results depend on the processing

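Of the 27 differences (9 probe sets, 3 comparisons), 20 kept their direction under all 23 alternatives, among them all of HMGCS1, ACAT2 and FDPS. The 7 others were between -0.40 and 0.27. After quantile normalization MVK at week 3 against week 0 was at -0.0042 (Bt.26959.1.A1_at) and -0.0064 (Bt.5159.1.A1_s_at), and the latter at -0.0015 with centred arrays. PMVK at week 3 against week 0 was at 0.016 with array weights and 0.12 when the 3 arrays set apart by their hybridization controls were left out, and at week 1 against week 0 at 0.0035 without those arrays. Leaving out 1 array or 1 cow gave -0.096 to 0.077 for PMVK at week 3 and -0.26 to 0.049 at week 1 against week 0, -0.59 to 0.060 for MVD at week 1 against week 0 and -0.22 to 0.48 at week 3 against week 1, and -0.16 to 0.047 for MVK at Bt.26959.2.S1_at at week 1 against week 0. The cause was not tested.

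Members were called with array weights alone, which gave week 1 of cow 1 a weight of 0.06. They were 2 of 9 at week 1 against week 0, where 9970 of all 24016 probe sets were called in that setting. These 2 were HMGCS1 at Bt.22763.1.S1_at (2.53, adjusted p = 0.0181) and ACAT2 (0.60, adjusted p = 0.0400, limma). In the F test over 3 weeks 3 of 9 members were called, where 6112 of all 24016 were. Calls were thus common over the whole array in this setting and are no result about the members. Over all alternatives the adjusted p at week 1 ran from 0.0181 to 1.0 for that HMGCS1 probe set and from 0.0400 to 1.0 for ACAT2. With array weights 9970, 7 and 97 of all probe sets were called in week 1 against week 0, week 3 against week 0 and week 3 against week 1, and 6112 in the F test. With those 3 arrays left out these counts were 5, 6, 12 and 8. The cow as a replicate block gave 2 at week 1 against week 0 and 1 in the F test, and changed no call of a member. The random effect gave 1 and the SD filter 2 at week 1 against week 0, and quantile normalization 2 at week 3 against week 0. Leaving out 1 array or 1 cow gave 0 to 45, 0 to 2 and 0 to 38 in the 3 comparisons and 0 to 28 in the F test, and the counts of 45, 38 and 28 came without week 1 of cow 1. The members' medians moved by less than their SD over cows in all 23 alternatives. At an unadjusted p under 0.05, array weights gave 12039, 3600 and 8312 probe sets in the 3 comparisons, and the block 1828, 1469 and 1821. With array weights, 4 of 30 other pathway genes were called at week 1 against week 0 and 1 of 30 at week 3 against week 1, where none was otherwise. These stand beside the 9970 and 97 of all 24016 probe sets called in that setting.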
